A study of Mus musculus with 50 samples.

Results

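The regions described here were open chromatin peaks of mouse spinal motor neurons that were first called at postnatal day 4 (P4) and were called again at every later age. A peak of the first P4 library was taken when it overlapped by at least 1 bp a peak of the second P4 library and of both libraries at P13, P21, P56 and 2yr, and no peak of either library at E10.5 or E13.5. The peaks were thus chosen by the presence of calls in the in vivo libraries. This left 3708 of 115517 peaks (3.21%), termed P4-kept peaks below, with a median width of 559 bp (257 to 2215 bp). ATAC-seq, which maps open chromatin by where a transposase cuts DNA, covered 14 in vivo libraries at 7 ages, 2 per age, and 8 libraries of cultured motor neurons, 2 per condition. RNA-seq covered 18 in vivo libraries, 2 or 3 per age. At E10.5 the mice were C57BL/6 with HB9-GFP and whole cells were sorted. From E13.5 onward they were C57BL/6 with Chat-Cre and SUN1-GFP-3xMYC, a nuclear envelope tag switched on by Cre in cells that express the acetylcholine-synthesising enzyme, and nuclei were used. Every library pooled the cords of several animals of both sexes. Cultured neurons came from embryonic stem cells of 1 line with the same Chat-Cre and SUN1-GFP alleles, and were taken on dissociation (DIV0) or after 7 or 28 days with cortical astrocytes (DIV7, DIV28). A further set was kept in 1 uM tetrodotoxin (TTX), which blocks sodium channels and so action potentials, for the whole 28 days. Chat-Cre labels all cholinergic neurons and some other neurons, so the nuclei are not motor neurons alone. The study's deconvolution of its P56 RNA gave mostly skeletal and some visceral motor neurons, few cholinergic interneurons and almost no non-cholinergic cells. For RNA, the study reports less pure nuclei at E13.5 and P4, with some from blood vessels, than at later ages. Its sorted ATAC-seq nuclei were of high purity at all ages.

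Chromatin opens where transcription factors displace nucleosomes, at promoters and at distal enhancers that act on genes some way off. Neurons leave their embryonic state over weeks, during which channels, receptors and synaptic proteins replace the growth programme of the axon. Factor families with known DNA motifs take part: nuclear factor I (NFI) proteins in neurons and glia from mid-gestation, AP-1 dimers of FOS and JUN proteins and MEF2 proteins downstream of activity, basic helix-loop-helix proteins at E-boxes, steroid hormone receptors, and HOX, Onecut and LIM homeodomain proteins in early motor neuron specification.

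The windows below show what these regions look like, each reaching 100 bp to each side of the P4 summit on the plus strand of mm10 (GRCm38), read from the reference genome. Capitals mark the match to the named consensus on either strand, and the last window held no match to any of the 20 consensuses searched. The NFI, MEF2 and steroid receptor windows and the AP-1 window near Sulf1 are those whose lowest postnatal enrichment was highest among P4-kept peaks that hold the consensus, and the other windows were chosen after their values were seen, the AP-1 window near Vstm2a for its height at DIV28. They are named by the nearest coding gene. The E-box window lay at chr8:60406410-60406610 (between genes, Gm10283) and the NFI full site window at chr17:72510787-72510987 (intron, Alk). The AP-1 windows lay at chr1:12623140-12623340 (between genes, Sulf1) and chr11:15770149-15770349 (between genes, Vstm2a). The rest lay at chr3:123567517-123567717 (MEF2, intron, Ndst3), chr4:152642325-152642525 (steroid receptor, between genes, Nphp4) and chr10:79969121-79969321 (upstream of Grin3b).
E-box near Gm10283: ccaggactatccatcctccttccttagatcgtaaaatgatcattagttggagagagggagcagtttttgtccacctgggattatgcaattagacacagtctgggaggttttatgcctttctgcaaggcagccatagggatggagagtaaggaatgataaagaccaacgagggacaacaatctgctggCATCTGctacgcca
NFI full site near Alk: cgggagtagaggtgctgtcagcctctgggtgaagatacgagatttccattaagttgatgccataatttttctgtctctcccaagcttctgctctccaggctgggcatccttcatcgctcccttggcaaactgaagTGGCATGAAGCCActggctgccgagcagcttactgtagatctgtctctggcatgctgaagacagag
AP-1 near Sulf1: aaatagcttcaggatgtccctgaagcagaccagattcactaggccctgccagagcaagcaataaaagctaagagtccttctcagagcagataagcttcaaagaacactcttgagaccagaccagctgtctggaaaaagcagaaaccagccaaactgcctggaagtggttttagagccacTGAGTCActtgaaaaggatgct
AP-1 near Vstm2a: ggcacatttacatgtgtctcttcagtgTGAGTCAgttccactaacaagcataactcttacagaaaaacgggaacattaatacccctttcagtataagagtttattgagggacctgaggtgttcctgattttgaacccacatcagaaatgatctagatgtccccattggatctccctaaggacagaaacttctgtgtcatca
MEF2 near Ndst3: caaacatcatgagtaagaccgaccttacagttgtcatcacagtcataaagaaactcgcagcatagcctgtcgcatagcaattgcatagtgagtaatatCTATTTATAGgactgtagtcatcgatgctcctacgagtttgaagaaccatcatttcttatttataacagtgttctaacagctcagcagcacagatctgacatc
Steroid receptor near Nphp4: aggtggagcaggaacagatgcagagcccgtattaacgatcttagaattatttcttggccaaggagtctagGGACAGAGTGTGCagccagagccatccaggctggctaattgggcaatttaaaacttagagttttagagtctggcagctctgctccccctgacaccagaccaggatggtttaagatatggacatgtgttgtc
Upstream of Grin3b: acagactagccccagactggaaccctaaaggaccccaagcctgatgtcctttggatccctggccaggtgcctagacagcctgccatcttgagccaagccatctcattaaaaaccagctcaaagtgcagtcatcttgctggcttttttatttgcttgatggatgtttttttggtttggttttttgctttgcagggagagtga

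The E-box peak (chr8:60405682-60407066) had the highest lowest value over the 10 postnatal libraries of all P4-kept peaks and was called in none of the culture libraries. Its fold enrichment at the summit over local background was 11.7 and 9.72 at P4, 12.1 and 14.3 at P13, 14.8 and 15.8 at P21, 18.01 and 16.5 at P56 and 13.49 and 14.1 at 2yr. The AP-1 peak near Vstm2a (chr11:15770083-15770609) had 4.14 and 4.7998 at P4, 13.9 and 12.9 at P21, 15.8 and 14.1 at P56 and 10.9 and 13.96 at 2yr. In culture it was absent at DIV0, had 7.24 and 8.36 at DIV7, 17.6 and 14.8 at DIV28 and 18.1 and 12.96 with TTX. The AP-1 peak near Sulf1 (chr1:12622817-12623710), with 6.66 and 6.86 at P4 and 14.3 and 15.1 at P21, was weaker in culture, with 5.18 and 3.66 at DIV28, 2.38 in 1 library with TTX, and no peak at DIV0 or DIV7. The MEF2 peak (chr3:123567390-123568087) rose early in culture, with 10.3 and 10.1 at DIV7 and 18.4 and 11.1 at DIV28 against 4.68 and 4.34 at P4. The NFI peak (chr17:72510757-72511122) had 3.60 and 3.66 at P4, 6.31 and 6.91 at P21 and 8.46 and 5.001 at DIV28, and no peak at DIV0 or DIV7. The steroid receptor peak (chr4:152642114-152642696) had 4.60 and 4.92 at P4 and 10.3 and 10.8 at P21, and of the culture libraries only 1 with TTX called it, at 3.75.

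In vivo the P4-kept peaks were lowest at P4 and highest at P21 and P56. These libraries chose the peaks, so the values are a description without a test. Median fold enrichment was 3.42 and 2.97 at P4, 3.54 and 4.21 at P13, 4.46 and 5.08 at P21, 4.82 and 4.66 at P56 and 3.76 and 3.76 at 2yr. Libraries differ in how far peaks stand above background, so the medians were set against the 22464 peaks called in all 14 in vivo libraries, termed constant peaks. The ratio of medians rose from 0.427 and 0.428 at P4 to 0.469 and 0.489 at P13 and 0.558 and 0.554 at P21, and was 0.533 and 0.551 at P56 and 0.534 and 0.527 at 2yr. The replicates of an age thus lay close together on this ratio, and both P13 libraries stood between the P4 and the P21 libraries. The rise was not particular to P4-kept peaks. Peaks opened by E13.5 and kept had medians of 4.32 and 3.59 at P4 and 4.77 and 5.61 at P21. Constant peaks had 8.01 and 6.95 at P4 and 7.996 and 9.17 at P21. Set against these, peaks opened by E13.5 and kept were also higher in both P21 libraries than in both P4 libraries. Whether the rise differed between the sets was not tested. Of single P4-kept peaks, 2457 (66.3%) were higher in both P21 libraries than in both P4 libraries and 237 (6.39%) were lower in both. At 2yr 1622 (43.7%) were above and 621 (16.7%) below both P4 libraries. These counts used fold enrichments that were not set against the constant peaks. They were not made for other sets of peaks, so they cannot show whether P4-kept peaks differ from those.

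**Figure D1:**
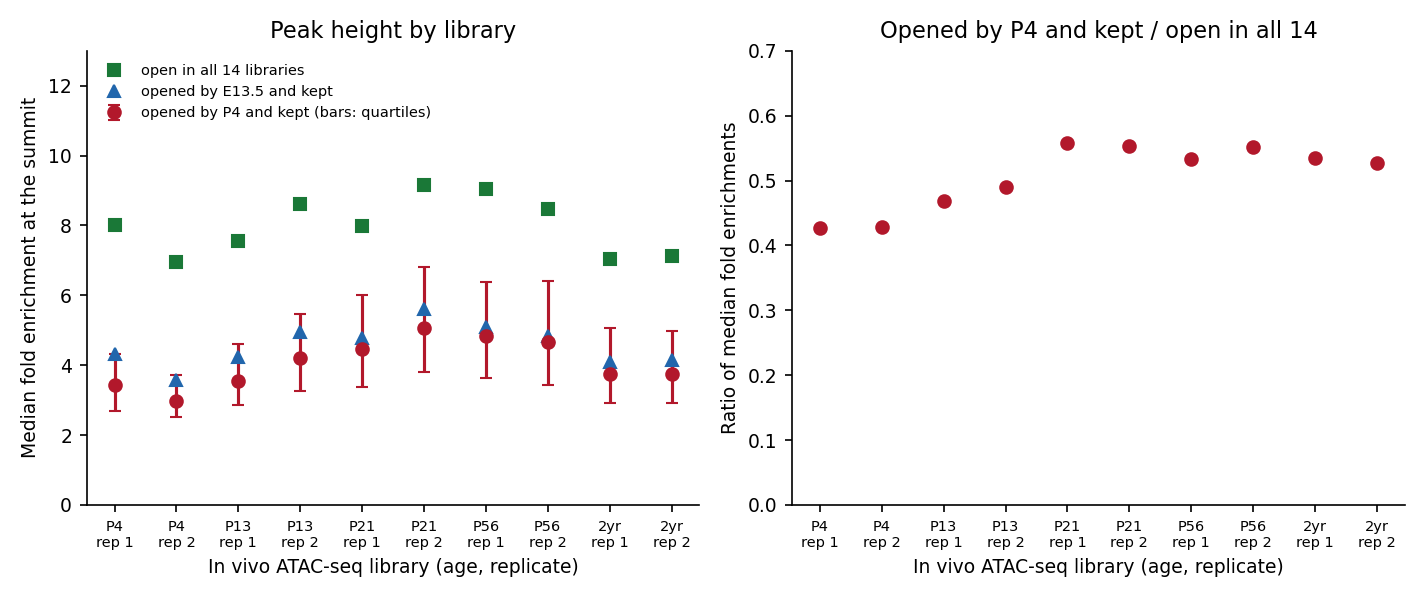
Left, median fold enrichment at the summit (vertical axis) in each postnatal in vivo ATAC-seq library (horizontal axis) for P4-kept peaks (circles, bars from the lower to the upper quartile), peaks opened by E13.5 and kept (triangles) and peaks called in all 14 in vivo libraries (squares). Right, the P4-kept median divided by the median of the constant peaks, which goes from 0.427 and 0.428 at P4 to 0.558 and 0.554 at P21.

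Membership was set by calls near the detection limit in many regions. The lowest −log10 p among P4-kept peaks in the first P4 library was 2.00047, with fold enrichment 1.6555, and the next were 2.00246 and 2.01105, where the deposited lists stop at about 2. Outside the rule, 4009 peaks without an embryonic call were missing in exactly 1 postnatal library, 3048 of them in the second P4 library, which held fewer peaks (96168) than the first. A further 2005 postnatal peaks were kept out by a call in exactly 1 embryonic library, 1108 by the first E13.5 library, where their median fold enrichment was 3.41. Taking the second P4 library out of the rule gave 6756 regions in place of 3708. The lowest of a peak's 10 postnatal values had a median of 2.51 and ranged from 1.519 to 9.72.

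The 10 P4-kept peaks with the highest such lowest value lay away from start sites, and 8 of them had no peak in any of the 8 culture libraries. Genes given here are the nearest coding genes. Besides the peak near Gm10283 they included peaks nearest to Nipal2 (chr15:34722731-34723467, lowest value 8.75) and A730009L09Rik (chr16:84474078-84474731, 8.23). Another lay nearest to Stxbp6 (chr12:44803857-44804761, 7.50), which encodes a SNARE-binding protein, and was called at DIV28 at 9.99 and 10.7. A peak nearest to Cacna2d3 (chr14:29502535-29503376, 7.20), an auxiliary calcium channel subunit, was called at DIV28 at 7.95 and 7.14 and was also called in both TTX libraries. Those nearest to Foxn2 (7.32), Tle3 (7.21), Kdm2b (6.99) and Slc30a8 (6.90) had no culture peak.

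P4-kept peaks were distal. A distance of more than 2000 bp to any annotated start of transcription was found for 88.8%, against 77.1% of all peaks of the first P4 library and 36.0% of constant peaks. The share was 88.9% for the 11535 peaks called in both E13.5 libraries and at every later age but not at E10.5 (E13.5-kept peaks), and 87.9% for the 6123 peaks that opened in both P4 libraries but were missing in at least 1 later library (P4-unkept peaks). Introns held 49.4%, intergenic sequence 35.1%, coding exons 1.29% and other exons 3.02%, and 415 peaks (11.2%) were within 2000 bp of a start site. The median distance to the start site of a coding gene was 32.3 kb, and 897 peaks (24.2%) lay over 100 kb away. Their spacing was wide, with 5.18% within 10 kb of another P4-kept peak against 14.3% of E13.5-kept peaks among themselves, a set with more peaks. The X chromosome contributed 16 of its 1761 P4 peaks (0.909%), where the autosomes gave between 2.62% and 3.74%. Sequence composition was plain, with a median GC content of 48.3%, and 13.1% of windows held no CpG, against 2.19% of the constant peaks. That share was 11.3% in E13.5-kept, 12.5% in P4-unkept and 10.01% in all P4 peaks, so it was near those sets. Repeats covered most of the window in 1.08%, compared with 8.12% of P4-unkept peaks and 3.35% of all P4 peaks. E13.5-kept peaks, at 0.85%, and constant peaks, at 1.01%, were close to P4-kept peaks here.

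E-boxes were the most frequent of the consensuses searched and stood above each comparison set. The E-box CAGATG, of the kind bound by proneural factors such as NEUROD proteins, occurred in 28.3% of P4-kept windows (95% Wilson interval 26.9% to 29.8%), against 24.8% of P4-unkept, 19.6% of E13.5-kept and 19.1% of all P4 peaks. The E-box CAGCTG occurred in 22.7%, against 16.8% of E13.5-kept and 16.5% of all P4 peaks. Regions are not replicates and neighbours share sequence, so these shares are descriptions and the intervals cover counting error only. In peaks of like GC content CAGATG was more frequent among P4-kept peaks in each of 6 GC classes, with 31.2% against 22.6% of all P4 peaks at 45% to 50% GC.

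AP-1 and the short NFI motif were also more frequent than in P4 peaks at large. The AP-1 consensus TGANTCA occurred in 488 P4-kept windows, 13.2%, against 8.60% of all P4 peaks and 7.56% of P4-unkept peaks. E13.5-kept peaks held it about as often, at 14.2%, with overlapping intervals. The NFI core motif TTGGCA occurred in 20.2%, against 15.0% of all P4 and 17.2% of E13.5-kept peaks, although over whole peaks the order against E13.5-kept peaks turned (41.9% and 44.4%). The full NFI site, which the core motif can overlap, showed the reverse, with 1.08% (40 windows) against 2.94% of E13.5-kept peaks. The MEF2 motif occurred in 1.05% (39 windows) and 0.590% of all P4 peaks, and the steroid receptor palindrome in 0.890% (33 windows) and 0.437%. Of P4-kept windows, 68.1% held no match from the NFI, AP-1, MEF2 or steroid receptor families, against 77.0% of all P4 peaks.

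Motifs of HOX-PBX and Onecut factors, of chromosome architecture and of promoters were scarcer than in P4 peaks at large. The HOX-PBX motif occurred in 3.59% of P4-kept windows against 9.35% of E13.5-kept and 6.08% of all P4 peaks, and in 3.66% of P4-unkept peaks. The Onecut motif TATTGAT was at 0.863% against 2.31% and 2.199%, in the same order. The CTCF motif, which marks sites of chromosome architecture, was found in 0.324%, against 1.92% of E13.5-kept and 2.96% of all P4 peaks, and in 0.310% of P4-unkept peaks. For HOX-PBX and CTCF the low share was thus common to both sets that opened by P4, while Onecut was at 1.60% in P4-unkept peaks. The KLF/SP motif GGGCGG, typical of CpG-rich promoters, was at 2.13% against 11.1% of all P4 peaks. The LIM homeodomain core TAATTA differed little (6.04% and 6.13%). Constant peaks held HOX-PBX in 2.46%, Onecut in 0.944%, CTCF in 6.22% and KLF/SP in 38.6% of windows. Among peaks over 2000 bp from a start site the orders against P4 peaks at large were the same, with 27.9% against 20.9% for CAGATG, 13.4% against 9.69% for AP-1, 3.55% against 7.16% for HOX-PBX and 0.304% against 3.17% for CTCF.

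**Figure D2:**
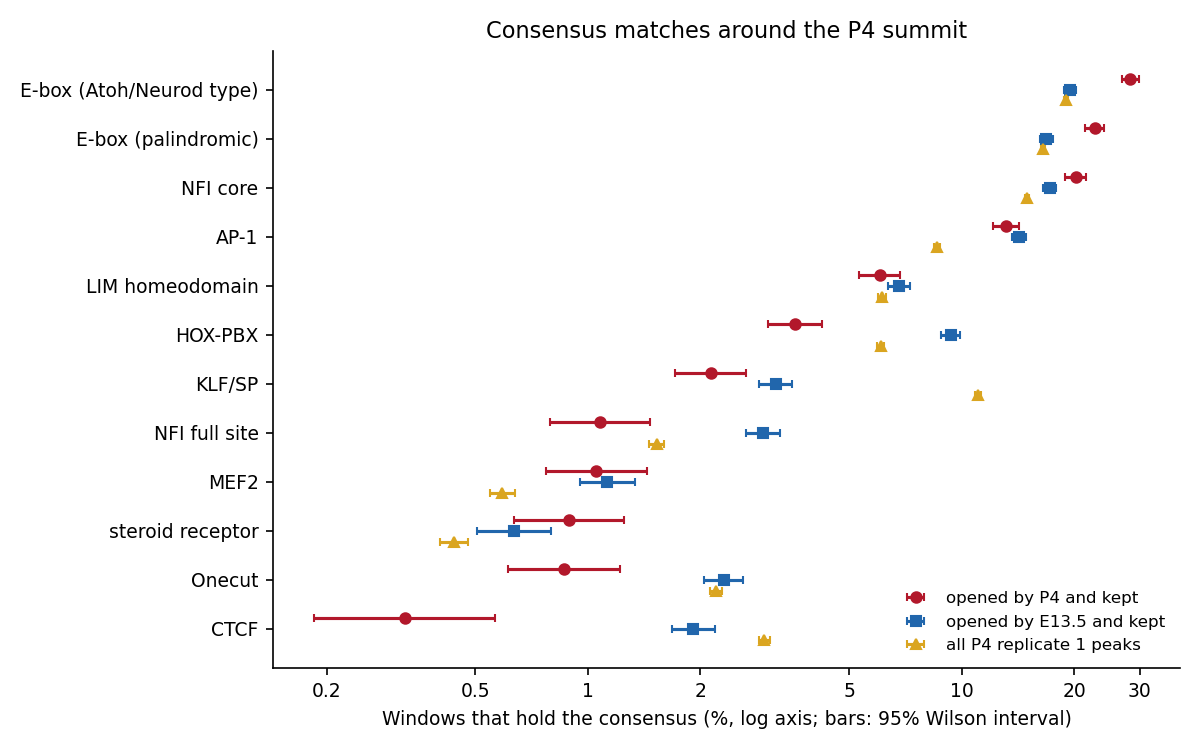
Share of 201 bp windows around the P4 summit that hold each consensus (horizontal log axis, percent) for P4-kept peaks (circles), E13.5-kept peaks (squares) and all peaks of the first P4 library (triangles), with 95% Wilson intervals as bars. The upper E-box is CAGATG at 28.3% and the lower is CAGCTG at 22.7%, the NFI core is TTGGCA, and HOX-PBX, Onecut and CTCF sit to the left of both comparison sets.

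The culture libraries had no part in choosing the peaks, and asked whether the same regions open when motor neurons age outside the animal. Few P4-kept peaks were open at DIV0 and close to 1 in 2 were called at DIV28. A peak was called at 5.56% and 2.94% of them at DIV0, at 16.4% and 21.9% at DIV7, at 56.04% and 43.0% at DIV28, and at 56.04% and 45.4% with TTX. Both DIV28 libraries lay above both DIV7 libraries and these above both DIV0 libraries. The mean rose by 45.3 points from DIV0 to DIV28 (exact permutation test, two-sided, p = 0.333, the smallest that 2 against 2 libraries can give). E13.5-kept peaks rose by 33.8 points, from 39.1% to 72.8%, P4-unkept peaks by 22.0 points, from 4.26% to 26.3%, and constant peaks fell from 95.7% to 92.3%. The libraries themselves grew, from 94520 and 80818 peaks at DIV0 to 224328 and 152667 at DIV28, and over all P4 peaks the share rose by 12.7 points.

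With the 60000 highest peaks of every culture library the number of peaks was equal and the rise of the P4-kept peaks was 18.6 points in place of 45.3. The shares were then 1.78% and 1.21% at DIV0, 9.55% and 9.12% at DIV7, 20.8% and 19.4% at DIV28 and 19.1% and 19.0% with TTX. Over all P4 peaks the share fell under this limit, from 33.7% and 34.3% at DIV0 to 26.9% and 28.3% at DIV28. P4-unkept peaks went from 1.99% and 1.40% to 6.92% and 6.35%, and E13.5-kept peaks from 25.5% and 25.3% to 34.4% and 35.6%. The P4-kept peaks thus gained rank among the culture peaks while P4 peaks as a whole lost it.

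**Figure D3:**
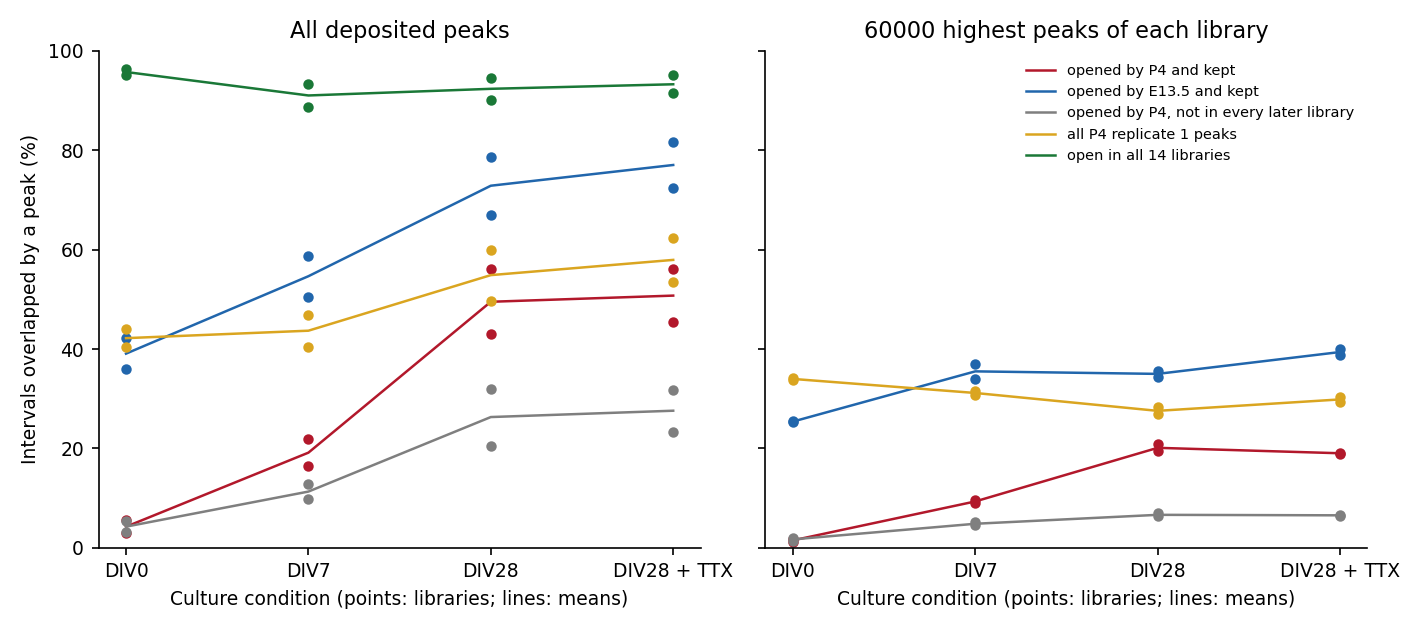
Share of intervals overlapped by a culture peak (vertical axis, percent) at DIV0, DIV7, DIV28 and DIV28 with TTX, with 1 point per library and lines through the means, for all deposited peaks (left) and the 60000 highest peaks of each library (right, constant peaks not shown). P4-kept peaks go from a mean of 4.25% at DIV0 to 49.5% at DIV28 on the left, and reach 20.8% and 19.4% on the right.

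With all deposited peaks, the share of open P4-kept peaks under TTX was near that of untreated cultures. The means were 49.5% at DIV28 and 50.7% with TTX, a difference of 1.24 points that is smaller than the gap between the replicates of either group (exact permutation test, two-sided, p = 1). With the 60000 highest peaks both TTX libraries lay below both DIV28 libraries (19.1% and 19.0% against 20.8% and 19.4%), while over all P4 peaks both lay above (29.4% and 30.3% against 26.9% and 28.3%). P4-kept peaks with an AP-1 consensus were then at 51.2% and 46.7% with TTX and at 56.1% and 52.7% without. Peak height was lower with TTX on the ratio to constant peaks. Where called, P4-kept peaks had median fold enrichments of 5.92 and 4.95 at DIV28 and 5.32 and 4.49 with TTX. Divided by the medians of the constant peaks these were 0.566 and 0.614 at DIV28 and 0.507 and 0.540 with TTX. E13.5-kept peaks had medians of 6.84 and 5.36 at DIV28 and 6.71 and 5.34 with TTX. Set against the constant peaks, they were also lower in both TTX libraries than in both DIV28 libraries. The drop was thus not particular to P4-kept peaks, and whether its size differed between the sets was not tested. Sets of 2 against 2 libraries cannot give an exact p under 0.333. Of the P4-kept peaks 1246 (33.6%) were called in both DIV28 and both TTX libraries. Another 46 (1.24%) were called in both DIV28 libraries and neither TTX library, and 69 (1.86%) the other way round. No such counts were made for other sets of peaks, so they cannot show whether P4-kept peaks differ from those. Among the named windows, the AP-1 peak near Sulf1 went from 5.18 and 3.66 at DIV28 to a call in only 1 TTX library, and the one near Vstm2a showed no separation of the groups.

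By single regions, 1377 P4-kept peaks (37.1%) were called in both DIV28 libraries and no DIV0 library, 668 of them in no DIV7 library either, and 16 were called in all 8 culture libraries. Another 1179 (31.8%) were called in no culture library. These classes were counted for P4-kept peaks alone, and the DIV28 libraries held more peaks than the DIV0 libraries. The counts therefore cannot show whether gain or absence in culture was unusual for these regions. Absence went with strength in vivo: it held for 53 of the 100 peaks with the highest lowest postnatal value, for 37.0% of the 927 highest and for 27.0% of the 927 lowest.

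P4-kept peaks with an AP-1 consensus were called in culture more often than those without. Of the 488 P4-kept peaks with an AP-1 consensus, 5.94% and 3.28% were called at DIV0, 42.6% and 49.8% at DIV7, 86.7% and 77.9% at DIV28 and 83.2% and 76.2% with TTX. Of the 3220 without it, 5.50% and 2.89% were called at DIV0, 12.4% and 17.7% at DIV7, 51.4% and 37.7% at DIV28 and 51.9% and 40.8% with TTX. The sets were alike at DIV0 and apart in every library from DIV7 onward, by 37.7 points on average at DIV28. The comparison is between groups of regions within the same libraries, so each library gives 1 value of the difference and both DIV28 libraries gave the same sign. With the 60000 highest peaks the DIV28 shares were 56.1% and 52.7% with AP-1 and 15.5% and 14.4% without. Where the match lay within 25 bp of the summit (152 peaks) the DIV28 shares were 90.8% and 81.6%, and where it lay farther out (336 peaks) 84.8% and 76.2%.

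**Figure D4:**
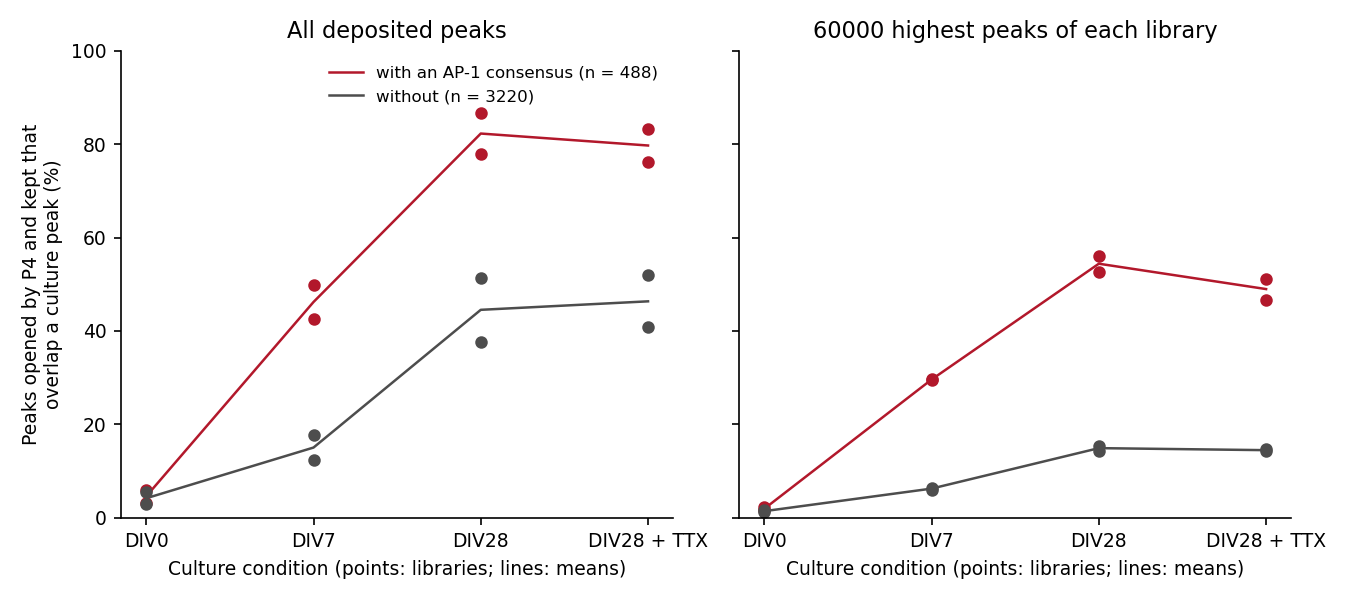
Share of P4-kept peaks overlapped by a culture peak (vertical axis, percent) by culture condition, for peaks with an AP-1 consensus within 100 bp of the summit (n = 488) and without (n = 3220), with 1 point per library and lines through the means, from all deposited peaks (left) and the 60000 highest of each library (right). Peaks with AP-1 reach 86.7% and 77.9% at DIV28 on the left and 56.1% and 52.7% on the right.

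This difference was not particular to P4-kept peaks. At DIV28, E13.5-kept peaks with AP-1 were called at 93.1% and 88.0% against 76.2% and 63.6% without, and P4-unkept peaks at 65.01% and 49.5% against 29.3% and 18.2%. Seen from the other side, AP-1 was in 25.4% of the 1377 P4-kept peaks gained at DIV28 and in 4.41% of the 1179 absent from culture. The E-box CAGATG went the other way, in 26.1% and 31.9%, as did the LIM homeodomain core, in 5.01% and 8.65%. The full NFI site was in 1.74% of the gained (24 windows) and 0.339% of the absent peaks (4 windows), and the 40 P4-kept peaks that hold it were called at 80% and 65% at DIV28 against 55.8% and 42.7% of the rest. HOX-PBX was in 5.37% of the gained and 2.21% of the absent peaks, and the steroid receptor palindrome in 10 and 11 windows. In vivo, P4-kept peaks with AP-1 had median fold enrichments of 3.26 and 2.85 at P4 against 3.42 and 2.97 without, and of 4.13 and 4.16 at 2yr against 3.68 and 3.73. At P56 the order differed between the libraries, with 4.77 against 4.84 in the first and 4.75 against 4.62 in the second.

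RNA came from other tissue than the open chromatin. From E13.5 onward its nuclei were taken with beads from brachial and lumbar cord, while those for ATAC-seq were sorted by fluorescence and included thoracic cord. RNA of the same ages was compared by giving each P4-kept peak to the coding gene with the nearest start site, which need not be the gene it acts on. The peaks fell to 2703 genes, of which 2117 passed the expression filter and were tested. From E13.5 to P4, across the step at which the peaks appeared, 658 of these genes were higher (31.1%, where 23.8% of all genes tested were called higher) and 288 were lower (13.6%, against 19.0%), by edgeR's quasi-likelihood test at p under 0.001 and at least 2-fold. Over all genes tested 42.7% were called in either direction. Among coding genes alone the background was 18.6% higher and 21.5% lower. The genes nearest to P4-kept peaks had a median log2 fold change of 0.39, against 0.12 over all genes tested and −0.083 over coding genes. Without the expression filter the order of the lower calls turned, with 15.8% of nearest genes against 11.1% of all genes, and 23.9% against 10.8% were higher. Genes near E13.5-kept peaks were 27.6% higher and 14.3% lower and genes near P4-unkept peaks 27.2% and 15.3%. In bulk RNA, fewer cells of a type and less RNA per cell cannot be told apart, and genes are not replicates.

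The share of higher genes grew with the number of P4-kept peaks. It was 16.1% for coding genes with none, 26.4% with 1, 39.1% with 2 and 52.4% with 3 or more, where 100 of 191 tested genes were higher and 16 lower. Genes with more peaks were longer, with median lengths of 23.1, 64.1, 139 and 237 kb. Within length classes, genes with a P4-kept peak were called higher more often than genes without in 4 of 5 classes: 15.2% against 11.3% under 25 kb, 25.5% against 21.2% at 50 to 100 kb, 34.1% against 28.5% at 100 to 200 kb and 58.9% against 43.3% over 200 kb. At 25 to 50 kb the shares were 14.6% and 15.0%. By distance, the share of higher genes was 26.3% (47 of 179) where the nearest P4-kept peak lay within 2000 bp of the start site. It rose with distance through 28.1% and 32.3% to 33.7% (117 of 347) where that peak lay over 100 kb away. The share was thus lowest where the peaks lay nearest. Whether the peaks act on these genes was not tested.

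**Figure D5:**
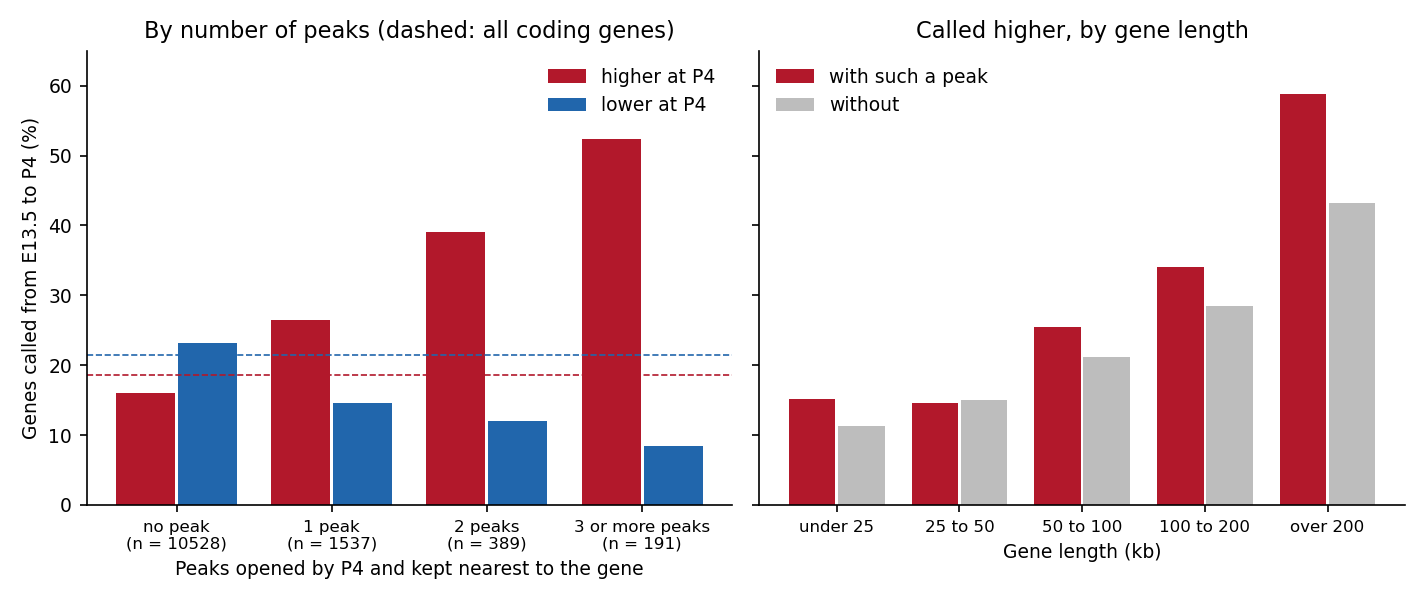
Left, share of tested coding genes called higher or lower from E13.5 to P4 (vertical axis, percent) by the number of P4-kept peaks nearest to them, with dashed lines at the shares of all tested coding genes (18.6% and 21.5%). Right, share called higher by gene length for genes with and without a P4-kept peak, which is 58.9% against 43.3% over 200 kb.

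Markers of other cells moved across the same step. The summed normalised counts of 8 endothelial genes were 14417 and 27912 at E13.5, between 6012 and 8215 at P4, at most 83.4 at P21 and between 6.38 and 21.3 at E10.5. Those of 11 oligodendrocyte genes went from 458 and 497 at E13.5 to between 2267 and 2888 at P4, and those of 8 astrocyte genes from 1061 and 1198 to between 3086 and 3887. Sums of 8 microglial genes stayed between 45.4 and 212 at all ages. The part of these cells in the E13.5 to P4 counts was not tested. From E10.5 to P21, where endothelial sums were low at both ages but oligodendrocyte sums rose from between 464 and 750 to between 7091 and 9611, 849 genes nearest to P4-kept peaks were higher (40.1%, against 34.7% of all genes) and 511 lower (24.1%, against 30.6%; 65.3% of all genes in either direction), and of genes with 3 or more peaks 110 of 191 were higher. That comparison sets whole cells against nuclei. P4-kept peaks themselves included 3 of the 68 P4 peaks nearest to oligodendrocyte markers (2 at Mobp, 1 at Mal), 4 of 88 at astrocyte markers, 5 of 100 at endothelial markers, 3 of 47 at inhibitory interneuron markers, 0 of 23 at microglial and 0 of 39 at cholinergic markers. The shares were 4.41% at oligodendrocyte, 4.55% at astrocyte and 6.38% at inhibitory interneuron markers, against 3.21% of all P4 peaks. The counts are small, and whether any list differed from that share was not tested. The 2 peaks at Mobp, a myelin protein gene, were called weakly or not at all in culture, with 2.69 in 1 DIV28 library as the only untreated call.

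Of the 10 genes with the most P4-kept peaks, 6 were higher at P4 than at E13.5. That was near the 52.4% of all tested genes with 3 or more peaks and the 58.9% of genes over 200 kb with a peak. Of all tested coding genes 18.6% were higher. Snx29, a sorting nexin gene, had 9 peaks and rose from P4 to P21 (log2 fold change 1.18), with 0.88 from E13.5 to P4, under the 2-fold limit. Ntrk3, the receptor for neurotrophin 3, had 7. Its normalised counts were 399 and 203 at E13.5, 2011, 2343 and 2028 at P4 and 3113, 2985 and 3061 at P21, so the E13.5 and P4 libraries did not overlap (2.99 ± 0.30 SE, edgeR adjusted p = 1.57e-07, n = 2 and 3). Also with 7 peaks were Grid1, a delta glutamate receptor (2.00), Lsamp, a neuronal adhesion protein (1.90), Dpp6, an auxiliary potassium channel subunit (1.42), and Rbfox1, a neuronal splicing regulator (1.37), all higher at P4, as was Cdh13 with 6 (1.701). Pik3c3 with 7 peaks (−0.95), Arnt2 with 6 (0.66) and Elmo1 with 6 (0.79) were not called.

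Among genes with 3 or more P4-kept peaks the largest rises from E13.5 to P4 were at Agbl1 (log2 fold change 5.06), Shisa9, an AMPA receptor partner (4.10), Slc24a2, a sodium/calcium/potassium exchanger (3.87), and Kcnk9, a leak potassium channel (3.84). Kcnk9 had 181 and 68.3 normalised counts at E13.5 and 1477, 1376 and 1852 at P4, with 4450, 4814 and 4591 at P21. Rgs6 (3.61), Kcnh1 (3.30), the synaptic scaffold gene Dlg2 (3.22), the serotonin receptor gene Htr2a (3.21), Stxbp6 (3.17) and L3mbtl4 (3.17) followed. The largest falls were at Fam198b (−3.52), the endothelial cadherin gene Cdh5 (−2.44), Bod1 (−2.40), the actin nucleator gene Actr3 (−2.38) and Glrx3 (−2.196). Cdh5 shows how loose the nearest-gene rule can be, since its 3 peaks lay 608428, 220384 and 14302 bp from its start site, and its counts fell from 3508 and 6019 at E13.5 to at most 9.89 at P21.

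Channel and receptor genes with a P4-kept peak mostly rose. Of 24 tested potassium channel genes with one, 19 were higher and 1 lower, where the whole list of 57 had 38 and 2. Calcium channel genes gave 10 higher and 0 lower of 11 (18 and 0 of 21 in the whole list), glutamate receptor genes 12 and 0 of 14 (21 and 0 of 25), GABA and glycine receptor genes 4 and 0 of 5 (14 and 0 of 16) and synaptic adhesion genes 14 and 0 of 15 (33 and 0 of 39). The shares with a peak were thus close to those of the whole lists. P4-kept peaks made up 4.99% of the P4 peaks at potassium channels, 5.24% at calcium channels, 5.45% at glutamate receptors, 3.12% at synaptic adhesion genes and 2.61% at axon guidance genes, against 3.21% of all P4 peaks. Kcnma1, the large-conductance calcium-activated potassium channel, had 4 peaks (log2 fold change 2.37), and Cacna1c, the L-type channel of neurons and heart, had 5 (1.92). Cacna2d3 had 3 peaks and rose over both steps (2.38 and 1.53), and Cacna1i, a T-type channel with 5, rose from E13.5 to P4 (3.12). Kcna4 (1.19) and Kcnk2 (0.87), potassium channels with 3 peaks each, were not called. The glutamate receptor genes Gria1 (1.89), Grik1 (2.35) and Grm3 (2.09), with 3 each, rose, and Grik1 fell from P4 to P21 (−1.90). The adhesion genes Nrxn3 (2.84) and Cadm2 (2.13), with 4 peaks, and Cntnap2 (2.92) and Dscaml1 (1.92), with 3, rose as well, as did the nuclear receptor gene Rora (2.36) and the collagen gene Col8a1 (1.37), with 3 each. Of 20 axon guidance genes with a P4-kept peak, 6 were higher and 2 lower, where the whole list of 68 had 16 and 10. Plxna1, a semaphorin receptor with 5 peaks, rose (1.03), while Nrp1 (0.02), Sema6d (0.27) and Plxna4 (1.38), with 3 each, were not called, and Sema6d fell from P4 to P21 (−1.77).

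From P4 to P21, when the peaks grew taller, 123 of the 2117 genes were higher (5.81%, against 5.85% of all genes tested) and 268 lower (12.7%, against 11.2%; 12.7% of coding genes). Over all genes 17.0% were called in either direction. Without the expression filter the shares were 4.96% higher against 3.13% and 13.02% lower against 6.32%, and with nearest genes of any biotype they were 7.94% higher and 9.87% lower, which turned both orders against all genes. Endothelial sums fell over this step from between 6012 and 8215 to at most 83.4, astrocyte sums from between 3086 and 3887 to between 1500 and 1994, and oligodendrocyte sums rose from between 2267 and 2888 to between 7091 and 9611, and their part in these counts was not tested. The 13 maturation genes that the study examined in situ rose in 12 cases over this step, a list drawn up on these samples, and 3 of them had P4-kept peaks. Grin3b, an NMDA receptor subunit of motor neurons, had a P4-kept peak (chr10:79968935-79969553) 1494 bp upstream of its start site, with fold enrichments of 2.94 and 2.11 at P4, 2.97 and 2.99 at P21 and 5.37 and 5.32 at DIV28. Its RNA was almost absent when that peak appeared, with 2.26, 4.39 and 5.01 normalised counts at P4, and reached 145, 155 and 118 at P21 (log2 fold change 5.14 ± 0.31 SE, edgeR adjusted p = 1.96e-09, n = 3 and 3). Spp1, the osteopontin gene, had a peak 27529 bp upstream (chr5:104406972-104408069, 5.76 and 4.11 at P4, 9.22 and 12.1 at P21) and rose from 10.2, 17.5 and 19.6 to 78.9, 129 and 117 counts (2.76). Tmod1, which caps actin filaments, had 2 intronic peaks and rose over both steps (2.74 and 2.08).

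From P56 to 2yr, over which all P4-kept peaks were called by rule, 4 genes were called higher (0.189%, against 0.499% of all genes) and 2 lower (0.0945%, against 0.186%; 0.685% of all genes in either direction). At an adjusted p under 0.05 none were, and 249 had an unadjusted p under 0.05 (11.8%, against 12.5% of all genes). The genes were Col4a6 (log2 fold change 1.64), Glis3 (1.22), Camkmt (1.17) and Cox8a (1.03), and, lower, Syk (−1.86) and Pou2f2 (−1.35), with edgeR adjusted p between 0.0629 and 0.0830. Leaving out any single library of these ages left at most 1 higher and at most 2 lower calls.

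Genes of the factor families whose motifs were searched moved unevenly from E13.5 to P4. Of 17 tested regulator genes listed, 5 were higher and 2 lower, where 23.8% and 19.0% of all genes tested were. The steroid receptor genes Nr3c2, Pgr and Nr3c1 were higher, by log2 fold changes of 4.62, 2.91 and 1.14. Nr3c2, the mineralocorticoid receptor, was the nearest coding gene of 2 P4-kept peaks, 56865 bp inside and 552417 bp upstream of its start site, and had 44.2 and 18.8 normalised counts at E13.5 against 580, 674 and 702 at P4. Nfix rose (1.40), while Nfia (0.19) and Nfib (0.03), each with 1 P4-kept peak in an intron, were not called. Mef2c, with 2 peaks, fell (−1.76) and Mef2d, with 1, did not pass (0.51). Of AP-1 genes Fosl2 fell (−1.05), and Jun, at 894 and 924 counts at E13.5 and 570, 487 and 523 at P4, did not reach the limit (−0.63).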

How the data were processed

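Open chromatin was measured by ATAC-seq and RNA by RNA-seq. Per the labels and the study's methods, the authors trimmed reads with Trim Galore and cutadapt 0.6.2, aligned ATAC-seq reads to mm10 with BWA 0.7.1.7, removed duplicates with SAMtools 1.7.2 and called peaks in each library with MACS2 2.2.7.1. The deposited peak lists give the fold enrichment at the summit over local background and a −log10 p, which grows with depth, and read depth behind the peaks is unknown. The authors aligned RNA-seq reads with STAR 2.5.2b and estimated expected counts per gene with RSEM 1.3.0, and these were rounded to whole numbers here. The deposited TPM values that the authors computed beside them were not used for tests. Totals per RNA library ran from 3820978 to 12731260 expected counts.

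Intervals listed more than once were merged, keeping the highest −log10 p. Motifs were searched on both strands of 201 bp windows in the GRCm38 genome (pysam 0.24.0). RNA was fitted over all ages with edgeR 4.0.16 in R 4.3.3 (TMM, genes at 5 CPM or more, quasi-likelihood test, Benjamini-Hochberg adjustment), with DESeq2 1.42.0 as an alternative. The code was tested on simulated data. Intervals of shares are 95% Wilson intervals and cover counting error only. Groups came from the labels. Per the study's methods each in vivo replicate pooled tissue of several animals, so p-values measure the spread between such pools. 1 sample without a group and the culture RNA were not used here. Genes named were the 10 with the most peaks, the 10 highest and 5 lowest called genes with at least 3 peaks, at most 4 per gene list with at least 3 peaks, the genes examined in situ, the regulators and the markers, and any others were chosen after their values were seen. The peaks and gene lists were chosen with earlier results of these data known. Alternatives changed overlap, peak strength, window, distance, scaling, filter and tool, and left out each library. 1 peak and 1 gene that these rules name are not reported here.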

Additional observations from a re-analysis of the deposited data

How the results depend on the processing

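The number of P4-kept peaks was 2144 when 50% of the interval had to be covered and 964 from peaks with −log10 p of at least 5, and 3715 to 6756 with 1 library left out, highest without the second P4 library. The distal share was 93.4% at 1000 bp, 75.8% at 5000 bp, 93.6% with starts of coding genes and 91.1% for the stronger peaks. With 50 bp to each side and over the whole peak the shares were 11.1% and 41.9% for the NFI core motif, 7.50% and 28.2% for AP-1, 0.566% and 2.67% for MEF2, 0.458% and 2.43% for the steroid receptor palindrome, 16.3% and 55.9% for CAGATG, 2.16% and 8.68% for HOX-PBX, 0.351% and 3.61% for Onecut and 0.162% and 0.809% for CTCF. In the stronger peaks AP-1 was at 11.1%, CAGATG at 34.3% and HOX-PBX at 3.01%. The rise in culture from DIV0 to DIV28 was 38.6 points for culture peaks with −log10 p of at least 5 and 35.6 points when 50% had to be covered, and 38.7 to 51.8 points with 1 library left out. The AP-1 difference at DIV28 was 41.5 points for stronger culture peaks, 41.8 for stronger P4-kept peaks and 35.3 to 40.2 with 1 library left out.

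Genes lower from E13.5 to P4 numbered 154 when the nearest gene could be of any biotype and 511 from E10.5 to P21, and those lower from P4 to P21 numbered 133 with any biotype. With 1 library left out, the counts were 521 to 703 higher and 209 to 323 lower from E13.5 to P4, 101 to 121 and 229 to 259 from P4 to P21, and 76 to 104 and 12 to 20 for genes with 3 or more peaks. Without the expression filter, 15.8% of nearest genes were lower from E13.5 to P4 against 11.1% of all genes, the reverse of the order with it. From P56 to 2yr the higher genes numbered 2 with RLE factors, 7 without the filter and 0 at an adjusted p under 0.05, and 0 to 1 with 1 library left out. The lower genes numbered 4, 10 and 0 in the same order, 5 in a fit of these ages alone, 6 with DESeq2, and 0 to 2 with 1 library left out. The replicate block gave 647 and 280, 125 and 263, and 4 and 1 over the 3 steps. The numbers do not pair the samples, since same-numbered libraries correlated at −0.128 to 0.104. The cause of these changes was not tested. Of 3890 values of named genes under alternatives 3722 stayed on the same side of the threshold, and 120 lost and 48 gained the call. A change of sign was counted only where 1 of the fits gave a call, and 0 such changes were found. Sign changes of genes called in neither fit were not counted.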
